A study of Mus musculus with 6 samples.

Results

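The Ikaros family of zinc finger transcription factors was examined in activated nTregs (natural regulatory T cells, a Foxp3-bearing CD4 lineage formed in the thymus) with and without stimulation of EP4, one of the receptors that bind prostaglandin E2. Its members are Ikzf1 (Ikaros), Ikzf2 (Helios), Ikzf3 (Aiolos), Ikzf4 (Eos) and Ikzf5 (Pegasus), taken by gene symbol among the reference gene rows of each table. All 5 are among the 47643 reference genes listed and among the 12186 that were tested, which had an FPKM (fragments per kilobase and per 1000000 fragments, a level corrected for gene length) of at least 1 in 3 or more libraries. The 5 members passed that limit in all 6 libraries, so none entered the test through 1 group alone.

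Both groups were splenic nTregs of C57BL/6 mice with the genotype Foxp3-DTR/EGFP, which express a diphtheria toxin receptor and a green fluorescent protein (GFP) from the Foxp3 locus. Both were activated for 2 days with antibodies to CD3 and CD28 and with IL-2. The vehicle group (DMSO, 3 libraries) and the agonist group (100 nM EP4 agonist, 3 libraries) were then kept for 6 h, and cells were sorted on GFP before RNA was taken. Neither the age and sex of the mice nor the nature of a replicate (a mouse, a culture or an aliquot) is given by the labels, so p-values cover only the spread of the libraries, and that spread may be technical. All cells were stimulated through the T cell receptor, so the levels below are those of activated nTregs and no resting cells were measured.

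Ikaros family proteins bind DNA through zinc fingers near the amino terminus and pair with each other, as like or unlike partners, through further fingers at the carboxyl terminus. They recruit the NuRD chromatin remodelling complex and other corepressors. In T cells Ikaros is required for lymphoid development, Helios is abundant in thymus-derived Tregs and is linked to the stability of their phenotype, Eos is a partner of Foxp3 in gene repression, and Aiolos is best known in B cells and in T cells that silence Il2. Pegasus is the most divergent member and recognises a different DNA motif.

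The coding sequence of the second zinc finger is shown for the 5 genes because it shows how close the members are at the base level, which bears on how far short reads can tell them apart. It was taken from the GENCODE M21 transcript with the longest coding sequence of each gene, 5′ to 3′ on the gene's own strand. Capitals mark the bases that are the same in Ikzf1 to Ikzf4, and in Ikzf5 those that match them.
Ikzf1: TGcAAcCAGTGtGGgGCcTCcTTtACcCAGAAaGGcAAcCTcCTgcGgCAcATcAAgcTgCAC
Ikzf2: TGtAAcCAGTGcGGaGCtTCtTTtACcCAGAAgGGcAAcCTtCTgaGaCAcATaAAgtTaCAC
Ikzf3: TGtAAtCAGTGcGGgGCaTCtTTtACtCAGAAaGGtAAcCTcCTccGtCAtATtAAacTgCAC
Ikzf4: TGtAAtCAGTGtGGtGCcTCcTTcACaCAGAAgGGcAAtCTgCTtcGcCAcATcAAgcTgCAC
Ikzf5: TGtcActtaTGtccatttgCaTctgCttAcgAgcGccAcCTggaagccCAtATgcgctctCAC

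Of the 63 bases, 43 were the same in Ikzf1, Ikzf2, Ikzf3 and Ikzf4, and Ikzf5 matched 21 of those 43. All 21 encoded residues were the same in Ikzf1 to Ikzf4, whereas Ikzf5 shared 5 of 21 with Ikzf1. Between pairs of the first 4 members the identity was 76.2 to 84.1%, and between Ikzf5 and each of them 41.3 to 47.6%. Fingers were matched by their order in the protein and not by alignment. The longest run shared by Ikzf1 and Ikzf5, of 12 bases, joined finger 3 of Ikzf1 to finger 1 of Ikzf5. Whether the second finger of Ikzf5 is the counterpart of the others was not tested, so its low values may compare unlike fingers. In the first finger of the carboxyl-terminal pair, the part through which the proteins join each other, Ikzf2 shared 21 of 21 residues with Ikzf1, Ikzf4 shared 19, Ikzf3 shared 17 and Ikzf5 shared 14. The longest run of identical bases between the coding sequences of any pair of members was 26, between Ikzf1 and Ikzf3, and the other pairs gave runs of 11 to 24. Read length is not stated in the labels.

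On mm10 (GRCm38), Ikzf1 spans chr11:11685003-11772926 on the plus strand, and the finger printed above lies in exon 6 of 9 of the transcript at chr11:11754024-11754086. The other members are on the minus strand. Ikzf2 spans chr1:69531214-69687245 with the finger in exon 5 of 8 at chr1:69570581-69570643, and Ikzf3 spans chr11:98464902-98546031 with the finger in exon 5 of 8 at chr11:98488940-98489002. Ikzf4 spans chr10:128630843-128645991 with the finger in exon 5 of 9 at chr10:128640229-128640291, and Ikzf5 spans chr7:131388652-131410521 with the finger in exon 4 of 4 at chr7:131392501-131392563. Among the annotated genes that overlap a member, those listed at 1 FPKM or more in 3 or more libraries were Gm12000 within Ikzf1 (0.951 to 1.61 FPKM) and Pstk at the end of Ikzf5 (10.5 to 13.2 FPKM). Both lie on the opposite strand, and since the strand setting of the counting is not given, reads of Ikzf5 and Pstk may not have been told apart.

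The aligned sequence of the 6 libraries was inferred as 4.32 to 5.65 gigabases and is not given by the labels. It was read from the most frequent ratio of coverage (mean depth of reads) to FPKM in each library. Of rows above 1 FPKM, 31.5 to 32.7% lay at that ratio. All 6 Treg markers on the list (Cd3e, Cd4, Foxp3, Il2ra, Ctla4, Tnfrsf18) were above 1 FPKM in every library, with a summed FPKM of 1865 to 2163 in the vehicle and 2368 to 2460 in the agonist libraries. Ctla4 and Tnfrsf18 made up most of that gap, and its part in the values of the members was not tested. B cells, which also use Ikaros and Aiolos, were checked with 8 markers, of which 6 were below 1 FPKM in every library. Ms4a1 was at 0 to 0.0611 and Pax5 at 0 to 0.00856, while Cd79b was at 3.03 to 5.09. The summed FPKM of the B cell list was 6.20 to 6.59 in the vehicle and 3.85 to 6.68 in the agonist libraries. The summed FPKM of the lists for other cells reached at most 6.40 for CD8 T cells, 9.13 for plasma cells, 5.39 for monocytes or macrophages, 0.958 for dendritic cells, 1.39 for NK cells and 8.09 for erythroid cells in any library. The CD8 T cell sum was mostly Cd8b1 (3.45 to 6.20), the plasma cell sum Prdm1 (4.08 to 9.09) and the monocyte or macrophage sum Cd68 (2.26 to 5.28). The other genes of the CD8 T cell, plasma cell and monocyte or macrophage lists were below 1 FPKM in every library. The erythroid sum was mostly Hba-a1 (0.601 to 5.67) and Hba-a2 (0.366 to 2.87), and the other 4 erythroid genes were below 1 FPKM throughout. Of the NK cell genes 3 of 4 were below 1 FPKM in every library, and of the dendritic cell genes 6 of 6. In bulk libraries such as these, fewer cells of a type and less RNA per cell cannot be told apart.

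Helios was the member with the highest mean FPKM on the reference rows, and it was the member with the largest difference between the groups. Its FPKM was 32.5, 24.8 and 31.9 in vehicle replicates 1, 2 and 3, and 39.1, 30.8 and 40.4 in agonist replicates 1, 2 and 3. Within each replicate number the agonist library was above the vehicle library, but agonist replicate 2 lay below vehicle replicates 1 and 3, so the groups overlapped. The mean was 29.7 ± 4.29 (SD, n = 3) with vehicle and 36.8 ± 5.21 (SD, n = 3) with agonist.

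On the log2(FPKM + 1) scale the difference of Ikzf2 was 0.30 (SE 0.14, 95% interval -0.037 to 0.63), a fold of 1.23 on that scale (0.975 to 1.55), and limma across all tested genes gave an adjusted p = 0.410, so it did not pass the threshold of 0.05. In this fit 0.394% of tested genes passed in either direction, 0.345% as higher and 0.0492% as lower. The 3 within-number differences of Ikzf2 were close to each other, at 0.26, 0.30 and 0.33 on the log2 scale. A limma fit that added a term for the replicate number (a block) gave the same difference a 95% interval of 0.18 to 0.41 and an adjusted p = 0.0268, which passes. In the blocked fit 10.5% of tested genes passed, 4.09% as higher and 6.41% as lower, and Ikzf2 was at place 511 of 12186 by p-value. In 20.7% of tested genes the agonist library was higher within all 3 numbers.

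**Figure D1:**
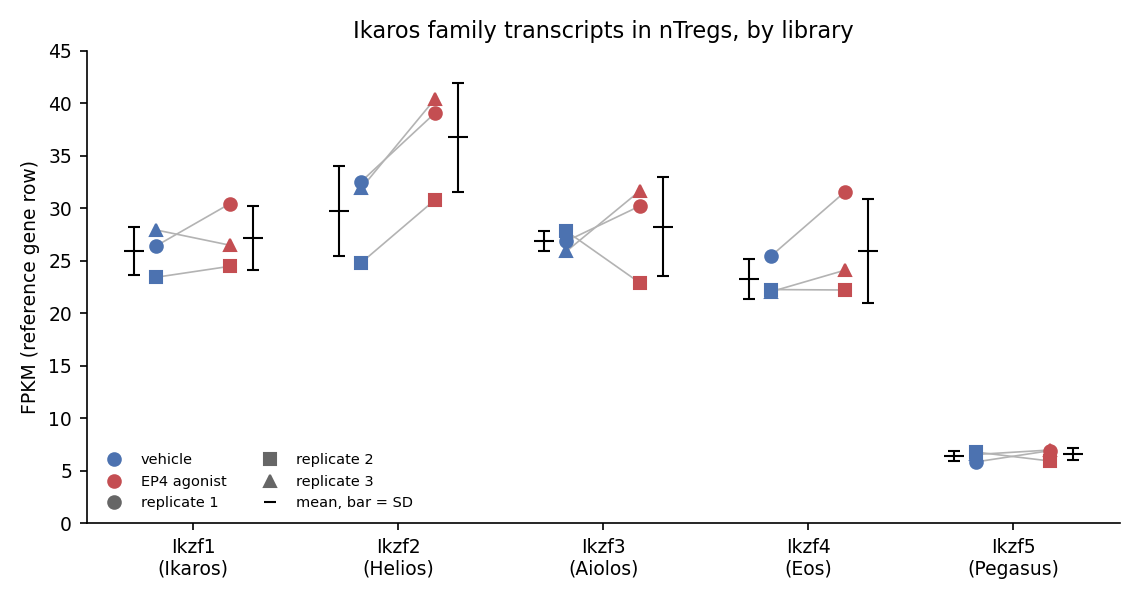
FPKM of the 5 members on the reference gene rows (vertical axis), for vehicle (blue) and EP4 agonist (red) libraries, with the symbol giving the replicate number, grey lines joining equal numbers, and black bars giving the mean and SD of 3 libraries. The 3 lines of Ikzf2 all slope upwards, those of each other member do not, and Ikzf5 lies near 6.49 FPKM, far below the rest.

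Ikzf2 was called only in fits with the block and with all 3 pairs of libraries. Its adjusted p was below the threshold in 4 of 8 fits with a block and in 0 of 15 fits without one. All fits reuse the same 6 libraries, and those without a block called 0 to 133 genes each. Of the 4 passing fits only the block on the reference FPKM was planned. The other 3 were added later and used the block with coverage, with quantile normalization or with upper quartile scaling. In these 6.61%, 4.26% and 4.49% of tested genes passed as higher. Leaving out pair 1, 2 or 3 from the blocked limma fit gave differences of 0.32, 0.29 and 0.28 and adjusted p = 0.0589, 0.130 and 0.148. Those fits called 241, 0 and 1 of 12186 tested genes. Missing the threshold there thus does not show that the difference of Ikzf2 depends on each pair. Using the loci assembled from each library in place of the reference row gave adjusted p = 0.0513 with the block (3.26% of matched genes passed as higher). The difference itself was positive in each of the 23 fits, from 0.18 without vehicle replicate 2 to 0.42 without agonist replicate 2.

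Ikaros, the founding member, was near the same level in both groups. Its FPKM was 26.4, 23.4 and 27.9 in the vehicle and 30.4, 24.5 and 26.5 in the agonist libraries. The highest value was in agonist replicate 1 and the lowest in vehicle replicate 2, and the groups overlapped. The log2 difference was 0.061 (SE 0.11, 95% interval -0.19 to 0.31, limma adjusted p = 0.846).

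Aiolos, the close relative of Ikaros that is best known from B cells, was at 26.9, 27.8 and 25.9 FPKM with vehicle and at 30.2, 22.9 and 31.7 FPKM with agonist. The 3 agonist libraries lay on both sides of the 3 vehicle libraries, and their SD was 4.72 against 0.964. The log2 difference was 0.058 (SE 0.12, 95% interval -0.23 to 0.35, limma adjusted p = 0.881), and within numbers it was 0.16, -0.27 and 0.28.

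Eos, the partner of Foxp3 in repression, was at 25.5, 22.3 and 22.1 FPKM with vehicle and at 31.6, 22.2 and 24.1 FPKM with agonist. Agonist replicate 1 stood above the other 5 libraries, which lay between 22.1 and 25.5 FPKM. The log2 difference was 0.14 (SE 0.14, 95% interval -0.18 to 0.46, limma adjusted p = 0.692), and without agonist replicate 1 it was -0.0045.

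Pegasus, the divergent member, was at 5.84, 6.77 and 6.55 FPKM with vehicle and at 6.91, 5.92 and 6.97 FPKM with agonist. The groups overlapped over nearly their whole range. The log2 difference was 0.040 (SE 0.10, 95% interval -0.19 to 0.28, limma adjusted p = 0.898).

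The 95% intervals of Ikzf1, Ikzf3, Ikzf4 and Ikzf5 hold 0 and do not show that these genes were unaffected. The fold at the upper end of the interval was 1.24 for Ikzf1, 1.28 for Ikzf3, 1.37 for Ikzf4 and 1.21 for Ikzf5 on the log2(FPKM + 1) scale. The median log2 difference of the 5 members was 0.061 against -0.030 over all tested genes. Agonist replicate 2 was the lowest agonist library for 5 of 5 members, and for 37.7% of tested genes. Whether that library's depth or scaling plays a part in the members' values was not tested.

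**Figure D2:**
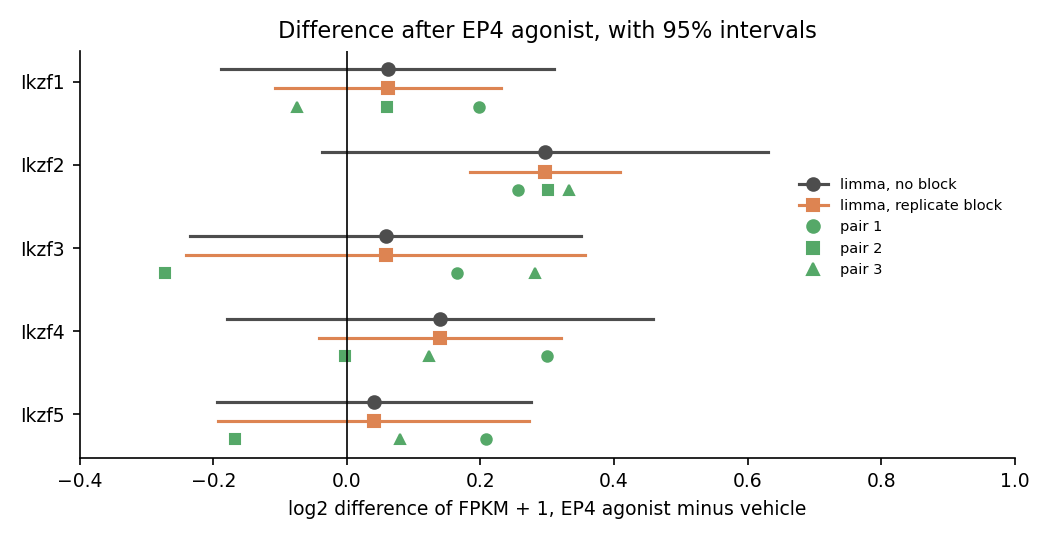
Difference between EP4 agonist and vehicle on the log2(FPKM + 1) scale (horizontal axis) for each member, with 95% intervals from limma without (grey) and with (orange) the replicate block and, in green, the difference within each replicate number. Only the blocked interval of Ikzf2, 0.18 to 0.41, leaves out 0.

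As a measure that does not depend on library scaling, each member's share of the summed family FPKM was taken within each library. The family sum was 112 ± 6.31 FPKM (SD, n = 3) with vehicle and 125 ± 16.5 FPKM (SD, n = 3) with agonist, and the groups overlapped (105 to 117 and 106 to 138). Helios made up 26.4 ± 2.44% (SD, n = 3) of it with vehicle and 29.5 ± 1.51% (SD, n = 3) with agonist, a difference of 3.05 percentage points. By coverage the difference was 3.54 points and on the assembled loci 2.49, and without vehicle replicate 2, the library with the lowest share, it was 1.64. Its share was higher in 3 of 3 pairs, by 0.489, 5.37 and 3.27 points in pairs 1, 2 and 3. The 2-sided exact permutation test within pairs gave p = 0.25, the smallest that 3 pairs allow. Between the groups, which did not overlap, the 2-sided exact permutation test gave p = 0.1, the smallest that 3 against 3 allows. Over the 5 members compared in this way, the shares of Ikzf1 (23.1 ± 1.17% and 21.8 ± 1.31%, SD, n = 3, exact p = 0.4), Ikzf3 (24.0 ± 2.13% and 22.6 ± 1.59%, SD, n = 3, exact p = 0.5) and Ikzf5 (5.72 ± 0.726% and 5.31 ± 0.290%, SD, n = 3, exact p = 0.5) were lower in the mean with agonist, and that of Ikzf4 was near 20.8% in both groups (exact p = 1). The shares sum to 100% within a library, so they are not independent of each other.

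The order of the members by level could be compared because FPKM is a value per length, but it depended on which deposited value was read. On the reference rows, over the 6 libraries, Ikzf2 was at 33.3 ± 5.74 FPKM (SD, n = 6), Ikzf3 at 27.6 ± 3.14, Ikzf1 at 26.5 ± 2.50, Ikzf4 at 24.6 ± 3.67 and Ikzf5 at 6.49 ± 0.497. The ranges of Ikzf2 and Ikzf3, of Ikzf3 and Ikzf1, and of Ikzf1 and Ikzf4 overlapped, and only Ikzf5 stood apart from its neighbour. Each table also gives the coverage of a row, taken here as the mean depth of reads over its bases. Divided by a constant of the library, coverage can be put on the FPKM scale, where it was 31.6 ± 5.44 for Ikzf2, 22.5 ± 3.46 for Ikzf4, 15.6 ± 0.615 for Ikzf3, 14.8 ± 0.884 for Ikzf1 and 4.70 ± 0.387 for Ikzf5 (SD, n = 6). Ikzf1 and Ikzf3 thus had 0.559 and 0.571 of the coverage that their FPKM would give, against 0.951 for Ikzf2, 0.915 for Ikzf4 and 0.725 for Ikzf5, and the median over all tested genes was 0.866.

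The loci assembled from each library's own reads gave yet another order. There Ikzf1 was highest at 58.1 ± 3.01 FPKM (SD, n = 6), above Ikzf2 at 40.8 ± 6.55, Ikzf3 at 35.1 ± 4.77, Ikzf4 at 28.9 ± 4.59 and Ikzf5 at 6.56 ± 0.445. The assembled value of Ikzf1 was 2.19 times its reference value, with 2.03 to 2.33 in single libraries, a higher ratio than that of 95.1% of the 11214 tested genes that could be matched to a locus in every library. For Ikzf1 the coverage of the 2 rows differed far less, with ratios of 0.977 to 1.03. The ratio of assembled to reference FPKM was 1.23 for Ikzf2, 1.28 for Ikzf3, 1.17 for Ikzf4 and 1.01 for Ikzf5, and its median over the matched genes was 1.01. Which of the rows holds the level of Ikaros was not tested.

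In all 3 readings Ikzf5 was the lowest member in 6 of 6 libraries and Ikzf2 was above Ikzf4 in 6 of 6. Helios was above Aiolos in 5 of 6 libraries on the reference rows, 6 of 6 by coverage and 5 of 6 on the assembled loci. Whether Helios or Ikaros had the more abundant transcript changed with the reading, since Ikzf2 was above Ikzf1 in 6 of 6 libraries on the reference rows and Ikzf1 above Ikzf2 in 6 of 6 on the assembled loci. Against all tested genes, the reference FPKM of Ikzf2 was above that of 75.1 to 85.6% of genes, and that of Ikzf5 above 33.7 to 39.9%.

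**Figure D3:**
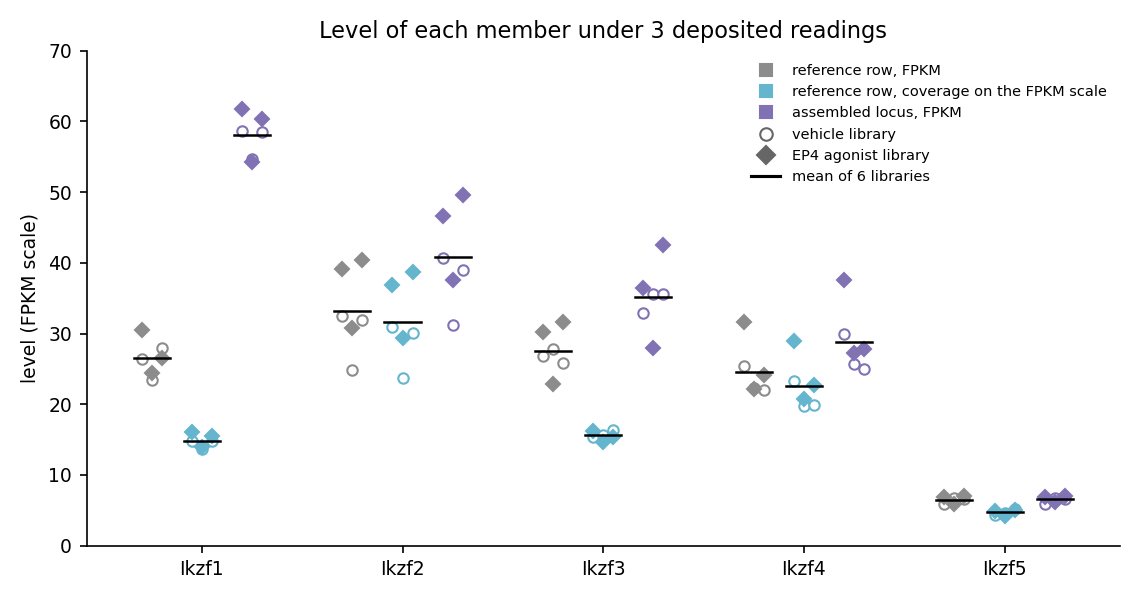
Level of each member on the FPKM scale (vertical axis) under 3 readings: FPKM of the reference row (grey), coverage of that row put on the FPKM scale (blue) and FPKM of the assembled locus (purple), with open circles for vehicle, filled diamonds for agonist libraries and a black line at the mean of 6 libraries. Ikzf1 moves from 14.8 to 58.1 between readings, while Ikzf5 stays lowest in each.

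The assembled loci also differed from the reference genes in extent. The Ikzf3 locus ran 4002 to 4016 bases past the annotated 3′ end in all 6 libraries. The Ikzf4 locus began 23186 bases upstream of the annotated start in vehicle replicate 2 alone. The loci of Ikzf1 and Ikzf5 began within 61 bases of the annotated starts in every library.

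The genes that work with the family were followed in 6 lists, and no gene of any list passed in the fit without the block, where 0.394% of tested genes did. With the block 10.5% did, 4.09% as higher and 6.41% as lower. There the subunits of NuRD, the remodelling complex that Ikaros proteins recruit, gave 3 lower and 0 higher of 13 tested. These were Mta1 (42.1 ± 1.43 FPKM with vehicle and 35.2 ± 1.78 with agonist, SD, n = 3, limma adjusted p = 0.215 without and 0.0338 with the block), Mbd3 (50.4 ± 6.89 and 39.7 ± 4.64, adjusted p = 0.308 and 0.0262) and Rbbp7, the subunit with the highest level (196 ± 9.84 and 167 ± 10.2, adjusted p = 0.303 and 0.0426). The median log2 difference of the 13 was -0.15, and the untested subunit was Chd5, at under 1 FPKM. Of 11 tested genes of other corepressors and remodellers 1 passed with the block, as lower: Smarcc1, a core subunit of the BAF remodelling complex (36.5 ± 3.44 and 30.7 ± 2.98, SD, n = 3, adjusted p = 0.368 without and 0.0356 with the block). Ezh2, the methyltransferase of Polycomb complex PRC2 and the gene with the highest level of that list, was at 63.6 ± 29.6 FPKM with vehicle and 97.3 ± 10.2 with agonist and did not pass.

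Crbn encodes cereblon, the substrate receptor of the ubiquitin ligase that takes up Ikaros and Aiolos in human cells given thalidomide analogues. It stood out among the 5 ligase genes. Its FPKM was 26.3, 20.3 and 22.4 in the vehicle and 42.7, 35.1 and 35.2 in the agonist libraries. The lowest agonist library was above the highest vehicle library, which 19.4% of tested genes also show in one direction or the other and 7.27% show as higher. The log2 difference was 0.69 (SE 0.12), with a limma adjusted p = 0.0829 without and 0.0142 with the block. None of the other 4 genes of the ligase passed in either fit, and Ddb1, the adaptor with the highest level, was at 101 ± 5.08 and 103 ± 5.59 FPKM (SD, n = 3).

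Casein kinase 2 and protein phosphatase 1 set the phosphorylation of Ikaros, and 0 of their 6 tested genes passed in either fit. Ppp1ca, the highest of them, was at 358 ± 18.3 FPKM with vehicle and 325 ± 15.7 with agonist (SD, n = 3, limma adjusted p = 0.506 without and 0.171 with the block).

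Of 15 genes described as controlled by the family, 6 were tested and 2 passed with the block, both as higher. Over all tested genes 4.09% passed as higher in that fit. Il7r, the receptor chain of IL-7, was at 10.3, 8.81 and 9.62 FPKM with vehicle and 15.0, 14.5 and 13.5 with agonist, groups that did not overlap (limma adjusted p = 0.0630 without and 0.0198 with the block). Il10, an anti-inflammatory cytokine, was at 9.80, 3.99 and 3.91 FPKM with vehicle and 12.1, 7.31 and 5.87 with agonist (limma adjusted p = 0.574 without and 0.0465 with the block). Replicate 1 was the high library for Il10 in both groups. Il2, which Aiolos and Ikaros are known to silence in T cells, was not tested because it lay at 0.0638 to 0.139 FPKM in the 6 libraries. Ifng, Bcl6, Dtx1, Hes1, Notch3, Ptcra, Cd8a and Dntt also missed the limit on low values. Cd4, the highest gene of the list, was at 114 ± 13.5 and 129 ± 17.0 FPKM (SD, n = 3) and did not pass.

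Foxp3, the factor that Eos and Helios accompany in Tregs, was at 153, 109 and 133 FPKM with vehicle and 154, 124 and 126 with agonist (limma adjusted p = 0.938 without and 0.737 with the block). Among it and 11 further partners of Foxp3, 2 were higher and 2 lower with the block, where 4.09% and 6.41% of all tested genes were. Gata3 (41.9 ± 3.50 and 57.0 ± 8.32 FPKM, SD, n = 3, limma adjusted p = 0.198 and 0.0219) and Stat5b (43.9 ± 5.39 and 57.2 ± 4.87, adjusted p = 0.215 and 0.0246) were higher. Irf4 (33.3 ± 5.80 and 22.1 ± 1.31, limma adjusted p = 0.156 and 0.0253) and Nfatc2 (28.9 ± 2.83 and 23.4 ± 2.00, adjusted p = 0.272 and 0.0339) were lower. The median log2 difference was -0.024 over these 12 genes, -0.16 over the other corepressors, 0.027 over the ligase, -0.11 over the kinase and phosphatase genes and 0.17 over the 6 tested genes under family control, against -0.030 over all tested genes.

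**Figure D4:**
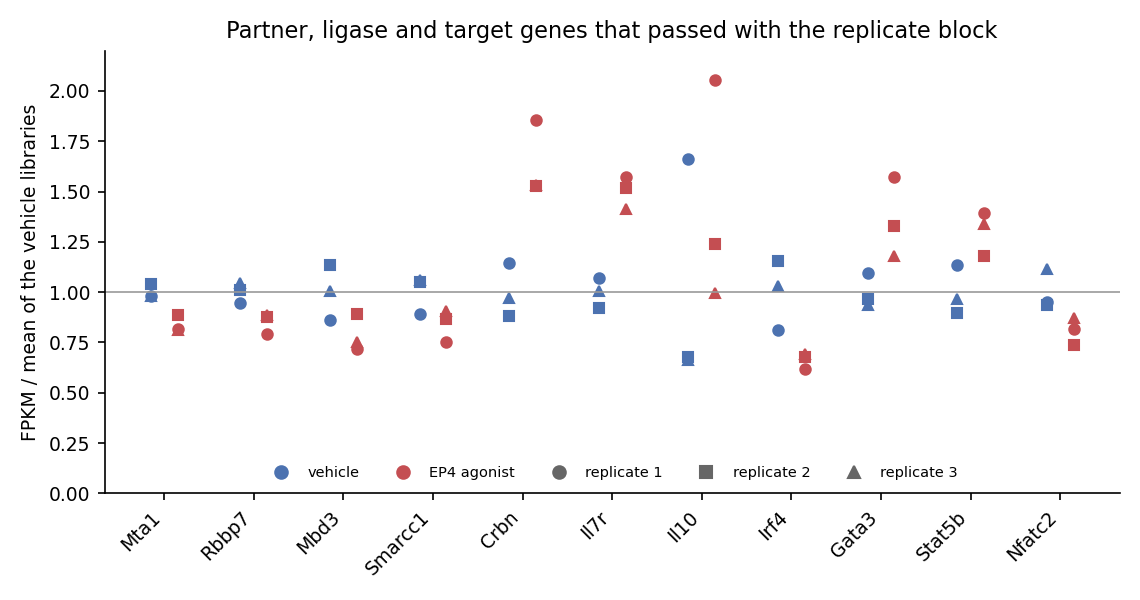
FPKM of each listed gene that passed with the replicate block, divided by the mean of its 3 vehicle libraries (vertical axis), for vehicle (blue) and EP4 agonist (red) libraries, with the symbol giving the replicate number. Crbn, Il7r, Gata3 and Stat5b have all 3 agonist points above all vehicle points. Mta1, Rbbp7, Irf4 and Nfatc2 have all 3 below them, and Il10, Mbd3 and Smarcc1 have groups that overlap. Of all tested genes, 19.4% have groups that do not overlap, in either direction.

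The genes whose pattern over the 6 libraries was most like that of a member were found by the root mean square difference of log2(FPKM + 1), each centred on its mean, among 8540 tested genes with a mean of at least 5 FPKM. For Ikzf2 these were Pik3r1, a regulatory subunit of phosphoinositide 3-kinase (0.0372), Cd53, a tetraspanin of leukocytes (0.0493), and Rasa3, a GTPase-activating protein (0.0498), and 73 genes lay within 0.1. For Ikzf1 the nearest was Msantd4 (0.0208, with 862 genes within 0.1), for Ikzf3 Txndc16 (0.0550, with 100), for Ikzf4 Zscan12 (0.0253, with 302) and for Ikzf5 Rxrb (0.0250, with 975). The SD of the member itself on that scale was 0.248 for Ikzf2, 0.130 for Ikzf1, 0.161 for Ikzf3, 0.193 for Ikzf4 and 0.097 for Ikzf5. A fixed limit of 0.1 also takes in flat genes where a member varies little, so these counts do not compare how rare the patterns are. The libraries hold the same 6 samples for every gene, so likeness here is a description of shared spread.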

How the data were processed

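RNA sequencing of 6 libraries (3 vehicle, 3 EP4 agonist) was deposited as 1 abundance table each. Trim Galore, HISAT2 and mm10 appear, with no version, in the submitters' processing notes. Neither the program behind the abundances nor its annotation and strand setting is named there or in the labels (not given in the sources used here). According to the extract protocol the libraries were stranded and poly(A)-based. The authors deposited FPKM, used as given, and coverage, a signal used as an alternative and to put depth on a base scale. Fragment counts could not be recovered, so no counting interval is given. Rows with the same reference identifier were summed. The deposited TPM column was not used. The value of 1 marker gene is not reported here.

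Members and lists were chosen with earlier results of these data known. Genes named from lists are those that passed with or without the block (up to 4) and the one with the highest mean FPKM, and Foxp3. For genes like a member, those with the smallest difference in pattern were taken. The log2 of FPKM + 1 was computed from the deposited values, and 12186 genes were tested with limma 3.58.1 (intensity trend, robust variances, statmod 1.5.0, R 4.3.3), with Benjamini-Hochberg adjustment over them and a threshold of 0.05, after the code was tested on simulated data. Fold changes on this scale understate changes of low genes. Shares were tested by exact permutation. Python 3.11.15 with numpy 2.4.6, pandas 2.3.3 and matplotlib 3.10.9 served for tables and plots.

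Deviations from the group means correlated at 0.512, 0.404 and 0.321 for equal replicate numbers, and from -0.353 to 0.002 for the 6 other pairs, so equal numbers were treated as pairs. No label says what a number means, and choosing the block from these libraries favours small p-values. An assembled locus was matched to a gene on the same strand where it covered at least 50% of the gene's span, a choice made after seeing the data. Alternatives were the block, pseudocount, filter, scaling, coverage, the assembled locus, the variance model and leaving out each library or pair. The assembled locus, and the block joined to coverage, quantile normalization or upper quartile scaling, were not among the planned fits.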

Additional observations from a re-analysis of the deposited data

How the results depend on the processing

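Of 110 combinations of a member's log2 difference and an alternative, 94 kept direction and side of the threshold, 4 passed it and 12 changed sign; no other call of a member changed with the replicate block. The difference of Ikzf2 passed with the block (0.30), with the block and coverage (0.30), quantile normalization (0.35) or upper quartile scaling (0.34). Leaving out each library gave 0.18 to 0.42 for Ikzf2, -0.022 to 0.13 for Ikzf1, -0.029 to 0.20 for Ikzf3, -0.0045 to 0.24 for Ikzf4 and -0.014 to 0.11 for Ikzf5. The sign changed for Ikzf1 with the block without pair 1 (-0.0069), for Ikzf3 with coverage (-0.028, also with the block) and with the block without pair 3 (-0.054), and for Ikzf5 with coverage (-0.015, also with the block) and with the block without pair 1 (-0.044). The share of Ikzf4 changed sign in 3 of its alternatives, over a range of -0.996 to 1.13 percentage points without each library. In the same way the share difference ranged from 1.64 (without vehicle replicate 2) to 3.78 points for Ikzf2, -1.87 to -0.567 for Ikzf1 (smallest without agonist replicate 3, and -0.599 without vehicle replicate 3), -2.33 to -0.183 for Ikzf3 and -0.768 to -0.042 for Ikzf5 (both smallest without vehicle replicate 2). The mean level over 6 libraries moved with coverage to 14.8 for Ikzf1, 15.6 for Ikzf3 and 4.70 for Ikzf5, and on the assembled locus to 58.1 for Ikzf1, 40.8 for Ikzf2, 35.1 for Ikzf3 and 28.9 for Ikzf4. Genes passing numbered 48 in the main fit, 2 with no filter, 75 with upper quartile scaling, 96 with coverage, 27 on assembled loci, and 0 to 133 without each library. With the replicate block they numbered 1279, 2009 with coverage, 997 with quantile normalization, 1015 with upper quartile scaling, 917 on assembled loci, and 241, 0 and 1 without pair 1, 2 or 3. At an unadjusted p under 0.05 limma gave 1033 and 1115 genes once the second or the third vehicle library was left out, 1606 without agonist replicate 2, and 2557 with the block without pair 2, all fits in which 0 passed. Leaving out vehicle replicate 1 gave 133 genes, agonist replicate 1 gave 4 and agonist replicate 3 gave 5. The cause was not tested for any of these. Depth in fragments is unknown, so what it limits cannot be given.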
